A study of Mus musculus with 2 samples.

Results

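The genes described here are 40 genes of the blood and lymphatic vessel lining, chosen by symbol, out of 22911 genes with a named probe on the arrays. They comprise 12 genes of the endothelial surface, junctions and enzymes, 9 receptors, 4 transcription factors, 5 lymphatic genes, 5 leukocyte adhesion molecules and 5 angiogenic ligands. Together they had 49 probes, matched through the RefSeq accession of each probe. All 40 had at least 1 probe, and 35 were measured on both arrays.

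The samples were pancreas RNA of C57BL/6 males at 5 weeks of age, with 1 array for WT and 1 for Nrdc-cKO. The Nrdc-cKO genotype was Ptf1a-Cre; Nrdcflox/flox, in which Cre recombinase made under Ptf1a removes the loxP-flanked Nrdc alleles, and Nrdc encodes the metalloendopeptidase nardilysin. Whether WT mice carried Cre or floxed alleles, and whether animals were pooled, is not given in the labels. The study asked what nardilysin does in the exocrine pancreas, and the comparison below asks how the vascular genes of that whole tissue differed between the genotypes.

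Endothelial cells line blood and lymphatic vessels and derive from mesoderm, whereas Ptf1a is expressed in progenitors of the pancreatic epithelium. Vessels grow when VEGF ligands act on the receptors Kdr, Flt1 and Flt4, and angiopoietins act on Tek to stabilise or loosen them. In inflamed tissue, endothelial cells display selectins and immunoglobulin-type adhesion molecules that capture leukocytes from the blood. The pancreas is supplied by fenestrated capillaries, which are dense in the islets of Langerhans.

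There were no replicates, so every difference below describes these 2 arrays and has no error across animals and no test. The only error that could be measured was technical. Over 291 probes with repeat spots, the SD of the log2 difference between spots had a median of 0.032 and a 95th percentile of 0.074. Nrdc itself had a processed signal of 270.4 in WT and 93.9 in Nrdc-cKO, a log2 difference of -3.21 after scaling, although the labels do not say which part of the gene was deleted. Signals were brighter in general on the Nrdc-cKO array, with 60.3% of its non-control spots well above background against 46.3% for WT. The 75th percentile of signal was 227.5 on the Nrdc-cKO array and 70.8 on the WT array. Levels are therefore given as log2 processed signal minus this percentile, and a difference is the Nrdc-cKO level minus the WT level. It is relative to the bulk of probes on each array. Before this scaling, the signal of all 35 measured members was higher on the Nrdc-cKO array, and the median gene stood at 1.503 on the log2 scale.

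Most of the vascular genes stood higher on the Nrdc-cKO array. Of the 35 measured members, 18 were at least 2-fold higher, against 12.8% of the 13001 genes measured on both arrays. Among the 11562 genes within the members' range of mean level, the share at least 2-fold higher was 14.0%. At 4-fold or more there were 6 higher members (Gpr182, Prox1, Vcam1, Fli1, Stab1 and Vegfc), against 3.73% of all measured genes. With normexp background correction and the 75th percentile, Prox1 (1.92), Vcam1 (1.86), Fli1 (1.02) and Vegfc (0.97) fell under 4-fold. In that setting Gpr182 (3.22) and Stab1 (2.13) stayed past 4-fold, and Vwf (2.09) passed it. Mcam, Angpt1 and Angpt2 were 2-fold or more lower, 3 members against 17.3% of all measured genes. The median member had a log2 difference of 1.04 (2.06-fold), and the median of all genes was -0.18. A positive difference was found for 30 of 35 members, against 41.3% of all measured genes, and 28 of the 35 lay above the 75th percentile of all genes, a log2 difference of 0.41. The counts depended on the scaling. The authors' deposited value table gave 28 higher and 1 lower, against 22.2% of all measured genes higher. Scaling to spike-in probes gave 32 and 0, against 79.8% higher. Normexp background correction gave 15 and 1, against 9.58% (75th percentile) or 8.83% (quantile scaling) higher. Of the 13001 genes, 1074 were lower in the value table, 115 with spike-in probes, and 1146 or 880 with normexp. Spike-in scaling raised the median of all genes by 1.89, so a negative difference smaller in size than this turned positive under it. Each measured member rested on 1 probe, except Vegfa with 3, so a gene's value could not be checked between probes. In whole tissue, more endothelial cells, more RNA per endothelial cell and a smaller share of acinar RNA cannot be told apart.

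**Figure D1:**
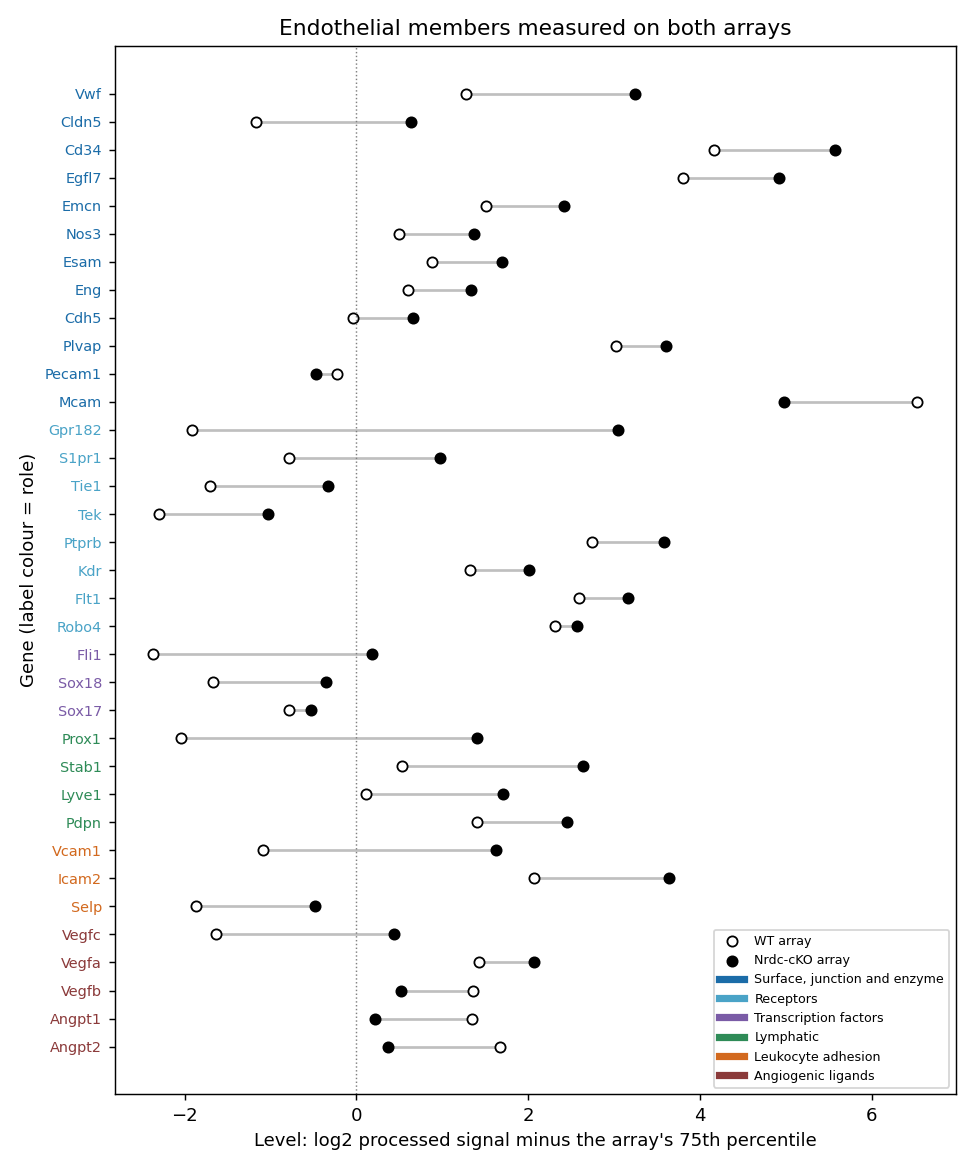
Level of each of the 35 members measured on both arrays, as log2 processed signal minus the array's 75th percentile (x axis), with the WT array as open points and the Nrdc-cKO array as filled points. Levels are comparable between arrays for 1 gene and not between genes; 30 of the 35 filled points lie to the right of the open point, the widest gap being Gpr182.

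Genes that define endothelial cells were detected on both arrays. Cdh5, the VE-cadherin of endothelial junctions, had a signal of 69.1 in WT and 360.3 in Nrdc-cKO, a log2 difference of 0.70 (1.62-fold). Pecam1, an adhesion molecule at the same junctions, had signals of 60.3 and 164.3 and a log2 difference of -0.24. It was 1 of 5 members with a negative difference, though it stood at 0.26 in the value table and 1.65 with spike-in scaling. Esam (0.81), Eng (0.73), an auxiliary receptor for TGF-beta family ligands, and Emcn (0.91), a sialomucin of capillaries and veins, were higher by less than 2-fold. Plvap, which forms the diaphragms of fenestrated capillaries, had signals of 576.0 and 2760 and a log2 difference of 0.58. Nos3, the endothelial nitric oxide synthase, stood at 0.88.

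Larger differences within this group were seen for 4 genes. Vwf, the von Willebrand factor stored in endothelial cells and platelets, had a signal of 171.9 in WT and 2157 in Nrdc-cKO, a log2 difference of 1.97 (3.91-fold). Cldn5, the tight junction claudin of endothelium, had signals of 31.6 and 352.5 and a log2 difference of 1.80 (3.48-fold). Cd34, a sialomucin of capillaries and haematopoietic progenitors, had signals of 1267 and 10807 and a log2 difference of 1.41. Egfl7, a secreted endothelial protein, stood at 1.12, with signals of 986.4 and 6896. In each of these 4 genes the Nrdc-cKO array was higher by at least 2-fold in every one of the 12 settings run.

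Mcam went the other way. This adhesion molecule is found on endothelial cells and also on pericytes and smooth muscle. Its processed signal came to 6542 in WT and 7172 in Nrdc-cKO, a log2 difference of -1.55 (2.93-fold lower), which turned to 0.34 with spike-in scaling. It was the member with the lowest difference. Of 8 pericyte genes, 7 were measured on both arrays, 4 of them 2-fold or more higher, such as Rgs5 (1.87) and Abcc9 (1.34), with Vtn (-1.07) lower. The summed signal of the 8 was 4719 in WT and 10687 in Nrdc-cKO, of which Vtn alone gave 3896 and 5970. Summed signals here and below are processed signals before scaling between the arrays. Des was not well above background in WT, and the part of pericytes in the Mcam value was not tested.

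Of the 9 receptors, 8 were measured, all 8 with a positive difference and 4 at least 2-fold higher. The VEGF receptors Kdr and Flt1 were close to each other in difference. Kdr, the main signalling receptor for VEGF-A, had signals of 176.6 in WT and 917.8 in Nrdc-cKO, a log2 difference of 0.69. Flt1, which binds VEGF-A and limits its access to Kdr, had signals of 425.0 and 2038 and a log2 difference of 0.58. Neither passed 2-fold, except in the value table and with spike-in scaling. Tek, the angiopoietin receptor, had signals of 14.5 and 111.4 and a log2 difference of 1.26. Tie1, its partner receptor, had signals of 21.8 and 180.9 and a log2 difference of 1.37. Both lay near the lowest detected signal of the WT array, 11.4, and their differences were 0.14 and 0.32 with normexp followed by the 75th percentile. Ptprb, the endothelial phosphatase that restrains Tek, stood at 0.85, and Robo4, a guidance receptor of quiescent endothelium, at 0.25.

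The lipid receptor S1pr1, which senses sphingosine 1-phosphate and keeps endothelial barriers tight, had signals of 41.0 and 445.2 and a log2 difference of 1.76 (3.38-fold). S1pr1 is also expressed by lymphocytes. The highest difference of all members was that of Gpr182, a receptor of sinusoidal and lymphatic endothelium that takes up chemokines. Its processed signal came to 18.8 in WT and 1878 in Nrdc-cKO, a log2 difference of 4.96 (31.1-fold), and 99.95% of all measured genes had a lower difference. Without spike-in scaling, the Gpr182 difference ranged from 3.22 to 5.46 across the settings. Aplnr, the apelin receptor of venous endothelium, was well above background in Nrdc-cKO only and was at least 1.995-fold higher, with signals of 10.1 and 73.0.

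Among the transcription factors, 3 of 4 were measured and all 3 had positive differences, except that Sox17 was at -0.01 in 1 normexp setting. Fli1, an ETS factor of endothelial and blood cells, had signals of 13.7 in WT and 257.6 in Nrdc-cKO, a log2 difference of 2.55 (5.85-fold) that fell to 1.02 at the lowest, with normexp. Sox18, which acts in early vessel and lymphatic formation, had signals of 22.3 and 178.1 and a log2 difference of 1.31, or 0.40 with normexp and the 75th percentile. Sox17, a factor of arterial endothelium, stood at 0.27, with signals of 41.0 and 158.2. Erg, the ETS factor most specific to endothelium, was detected in Nrdc-cKO only, with signals of 5.89 and 67.3, and was at least 1.84-fold higher.

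ETS factors such as Erg and Fli1 bind DNA around a GGAA core, and the promoters of the members were searched for the 7-base forms CAGGAAG and CCGGAAG on both strands, in the 250 bases before each start in the RefSeq promoters of build GRCm38.p6. Of the 40 members, 22 were matched to a promoter. At the first listed start, 6 of these 22 held a match (27.3%), against 16.8% of 27025 genes. The 6 were Sele, which was not detected, and 5 measured members, whose windows are shown because they hold the ETS letters. They lie at chr1:194938571-194938820 on the plus strand for Cd34, chr2:26580833-26581082 (plus) for Egfl7, chr3:137340828-137341077 (plus) for Emcn, chr9:37401722-37401971 (plus) for Robo4 and chr14:31168642-31168891 on the minus strand for Stab1. Each reads 5′ to 3′ on the strand of the gene, and capitals mark the ETS matches on either strand.
Cd34: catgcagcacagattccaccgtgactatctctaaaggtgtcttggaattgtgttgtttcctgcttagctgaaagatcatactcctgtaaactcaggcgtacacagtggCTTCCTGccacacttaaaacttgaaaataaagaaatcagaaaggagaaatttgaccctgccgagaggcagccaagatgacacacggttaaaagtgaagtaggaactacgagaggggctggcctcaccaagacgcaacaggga
Egfl7: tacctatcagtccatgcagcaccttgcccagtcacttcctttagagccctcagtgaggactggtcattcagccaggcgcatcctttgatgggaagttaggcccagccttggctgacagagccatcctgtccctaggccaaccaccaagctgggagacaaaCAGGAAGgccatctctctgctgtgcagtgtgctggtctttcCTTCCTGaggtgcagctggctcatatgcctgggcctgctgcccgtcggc
Emcn: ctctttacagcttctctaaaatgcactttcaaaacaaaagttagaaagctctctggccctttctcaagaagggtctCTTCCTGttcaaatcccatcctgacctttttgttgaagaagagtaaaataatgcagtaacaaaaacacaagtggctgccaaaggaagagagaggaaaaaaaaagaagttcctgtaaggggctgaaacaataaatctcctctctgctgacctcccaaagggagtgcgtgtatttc
Robo4: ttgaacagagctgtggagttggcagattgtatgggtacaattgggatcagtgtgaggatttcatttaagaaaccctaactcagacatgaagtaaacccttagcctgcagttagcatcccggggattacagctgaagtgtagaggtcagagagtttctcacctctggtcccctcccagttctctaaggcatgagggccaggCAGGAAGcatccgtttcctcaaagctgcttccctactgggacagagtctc
Stab1: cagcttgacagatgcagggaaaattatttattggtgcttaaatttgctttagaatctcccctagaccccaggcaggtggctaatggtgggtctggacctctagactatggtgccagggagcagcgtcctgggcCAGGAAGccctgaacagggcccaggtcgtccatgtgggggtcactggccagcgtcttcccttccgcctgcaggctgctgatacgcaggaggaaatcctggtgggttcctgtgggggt
Egfl7 held 2 matches in this window, the first starting 90 bases before the start, and the other 4 genes held 1 each. Differences of the 5 genes ran from 0.25 for Robo4 to 2.11 for Stab1. The matches are letters in a window and not measured binding sites.

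The lymphatic genes included the highest difference after that of Gpr182. Of 5, 4 were measured, with a median of 1.85 in the main setting. All 4 were at least 2-fold higher in each of the 12 settings. Prox1, the master transcription factor of lymphatic endothelium, had a signal of 17.3 in WT and 600.3 in Nrdc-cKO. Its log2 difference was 3.44 (10.8-fold), or 1.92 with normexp and the 75th percentile. Lyve1, a hyaluronan receptor of lymphatic capillaries, had signals of 76.2 and 743.1 and a log2 difference of 1.60. Stab1, a scavenger receptor of sinusoidal and lymphatic endothelium, had signals of 102.2 and 1417 and a log2 difference of 2.11. Pdpn, a mucin-type glycoprotein of lymphatic endothelium, had signals of 187.8 and 1240 and a log2 difference of 1.04. Flt4, the receptor for VEGF-C and VEGF-D, was not well above background on either array, with signals of 2.75 and 4.37.

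Other cells of the pancreas make some of these transcripts, and their markers differed as well. Prox1 is also made in islet cells, and all 7 islet genes examined were at least 2-fold higher, with a median of 4.04 and a summed signal of 25786 in WT and 613133 in Nrdc-cKO. Macrophages can make Stab1 and Lyve1, and 11 of 12 macrophage genes were at least 2-fold higher, with a median of 2.21 and a summed signal of 1914 and 20808. Mesothelial cells and fibroblasts make Pdpn, and of 6 mesothelial genes 5 were measured, 3 of them past 2-fold upward, with a median of 1.10, the summed signal being 534.9 and 2858 and Gpm6a being detected in Nrdc-cKO only. No islet or macrophage gene examined was undetected on either array. The part of these cells in the lymphatic values was not tested.

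A further list of 9 lymphatic genes was more mixed. Of these, 4 were measured, with 2 past 2-fold upward and 1 downward, against 12.8% and 17.3% of all measured genes. The other 5 were detected in Nrdc-cKO only, against 12.4% of all genes with a named probe. Itga9, an integrin of lymphatic valves, stood at 1.99, and Ccl21a, the chemokine by which lymphatic vessels attract dendritic cells, at 1.65. Ccbe1, which is needed for VEGF-C processing, stood at -1.56. Mmrn1, a secreted multimerin of lymphatic endothelium and platelets, was at least 3.80-fold higher.

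The adhesion molecules that capture leukocytes were higher wherever they could be measured, in 3 of 3 genes with a median of 1.58. Vcam1, the ligand of the integrin made by Itga4, had a signal of 33.3 in WT and 700.2 in Nrdc-cKO. Its log2 difference was 2.71 (6.55-fold), or 1.86 with normexp and the 75th percentile. Icam2, a constitutive ligand of leukocyte beta-2 integrins, had signals of 296.1 and 2846 and a log2 difference of 1.58 (2.99-fold). Selp, the P-selectin of endothelial cells and platelets, had signals of 19.4 and 162.5 and a log2 difference of 1.38, but 0.40 and 0.77 under the 2 normexp settings. Icam1, the inducible ligand of leukocyte integrins, was detected in Nrdc-cKO only, with signals of 2.74 and 89.1, and was at least 2.44-fold higher. Of all genes with a named probe, 12.4% were detected in Nrdc-cKO alone and 2.75% had such a bound past 2-fold, against 3 and 1 of the 40 members. Sele, the E-selectin of cytokine-activated endothelium, was not well above background on either array, with signals of 2.27 and 2.49.

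The leukocyte partners of these molecules stood on the same side. Of 9 partners, 7 were measured, all 7 with a positive difference, from 0.03 to 2.78, and 4 at least 2-fold higher. Itgb7 (2.78), Itga4 (2.33), the selectin ligand Selplg (1.90) and the beta-2 integrin Itgb2 (1.40) had the highest values, and Itgax, detected in Nrdc-cKO only, was at least 4.69-fold higher. The macrophage values given above bear on Vcam1 and Icam1 too, since macrophages can make both. Platelets carry P-selectin and von Willebrand factor, and of 6 platelet genes 3 were measured, with 2 at least 2-fold higher, Pf4 (1.70) and Itgb3 (1.26). The other 3 were detected in Nrdc-cKO only, Gp9 having the highest bound of at least 1.41-fold. The summed signal of the 6 was 637.9 in WT and 6455 in Nrdc-cKO, of which Pf4 alone gave 600.6 and 6256. The part of platelets and macrophages in the adhesion values was not tested. In a list of 16 lymphoid tissue genes, 6 were measured. Of these, 1 was at least 2-fold higher, Ltb (4.96), and 2 were lower, Cd3e (-1.41) and Glycam1 (-1.02). The shares of all measured genes were 12.8% higher and 17.3% lower. Cxcl13, detected in Nrdc-cKO only, was at least 91.8-fold higher. Madcam1 and Chst4, markers of high endothelial venules, were not detected on either array.

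**Figure D2:**
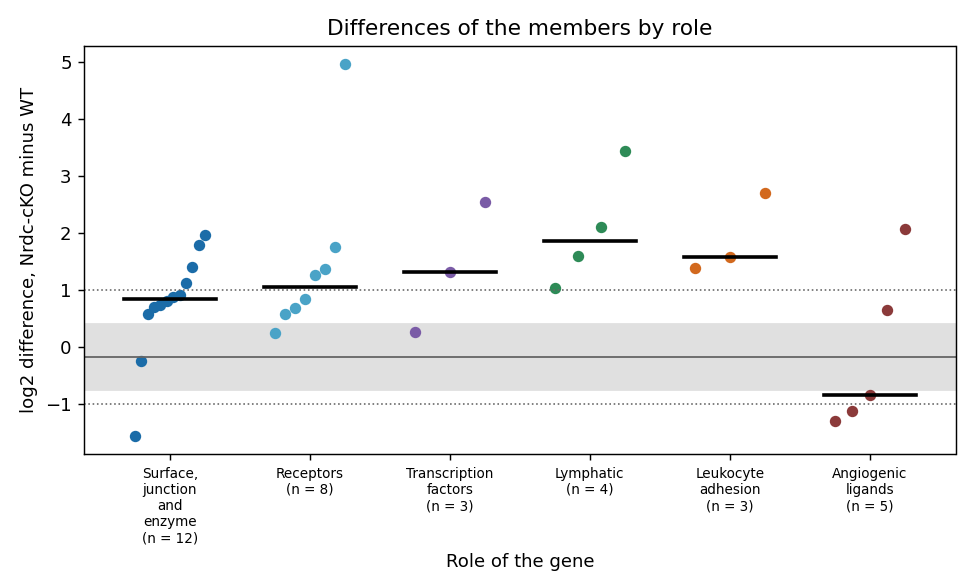
Log2 difference, Nrdc-cKO minus WT (y axis), of each measured member by role (x axis), with the median of each role as a black bar. The grey band holds the middle of all 13001 measured genes, from the 25th to the 75th percentile (-0.75 to 0.41) with their median as a line, and dotted lines mark 2-fold; the lymphatic and adhesion genes all lie above 2-fold and 3 of 5 ligands lie below 0.

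The angiogenic ligands differed from one another in direction. Vegfc, the ligand of lymphatic growth, had signals of 22.7 in WT and 309.3 in Nrdc-cKO. Its log2 difference was 2.08 (4.23-fold), or 0.97 with normexp and the 75th percentile. A second Vegfc probe, with signals of 2.45 and 11.5, was not well above background on either array and entered no difference. With no filter on dim probes the Vegfc difference was 1.32. Vegfa, the principal ligand of blood vessel growth, had 3 probes measured on both arrays, with log2 differences of 0.31, 0.53 and 1.10 and a mean of 0.65. Acinar, islet and fat cells also make Vegfa, and the islet values stand above.

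The other 3 ligands were lower relative to the bulk of genes. Vegfb, which binds Flt1, had signals of 181.7 and 327.3 and a log2 difference of -0.84. Angpt1, the Tek agonist made by mural cells, had signals of 179.3 and 265.4 and a log2 difference of -1.12 (2.17-fold lower). Angpt2, the antagonist released by endothelial cells under remodelling, had signals of 225.6 and 294.6 and a log2 difference of -1.30 (2.46-fold lower). All 3 turned positive with spike-in scaling. The 2-fold calls of Angpt1 and Angpt2 were lost under both normexp settings, at -0.68 and -0.80 with percentile scaling and at -0.82 and -0.92 with quantile scaling. Both were lost in the value table too, at -0.62 and -0.80. Angpt1 also missed 2-fold with loess (-0.97) and with the 75th percentile over detected probes (-0.96). The ligands' median was -0.84, against 0.84 for the surface genes and 1.06 for the receptors. With spike-in scaling these medians were 1.06, 2.74 and 2.95, and the median of all measured genes was 1.71.

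In a further list of 21 genes of VEGF, Notch, ephrin and related vascular signalling, 18 were measured, with a median of 0.36. Of these 18, 3 were 2-fold or more higher and 2 lower, against 12.8% and 17.3% of all measured genes. Angptl4, a lipoprotein lipase inhibitor made by fat and endothelial cells, stood at 2.92, and Vegfd, the other ligand of Flt4, at 2.56. Pgf, a ligand of Flt1, stood at -1.91, and the arterial connexin Gja5 at -1.83. Vegfa is a target of the hypoxia response. Of 9 measured hypoxia genes, 0 passed 2-fold upward and 2 were lower by that much, with a median of -0.10. That median lay close to the -0.18 of all measured genes, whose shares past 2-fold were 12.8% upward and 17.3% downward. With spike-in scaling 7 of the 9 were higher, with a median of 1.79, against 79.8% of all measured genes and a median of 1.71. The part of hypoxia in the Vegfa value was not tested. Pdk1 (-1.78) and Ndrg1 (-1.49) were the lower ones.

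A list of 29 other blood endothelial genes was set beside the 25 members that are surface, receptor or transcription factor genes. Of those members, 23 were measured, 10 of them 2-fold or more higher and 1 lower, the median being 0.88. Of the 29 other genes, 25 were measured, 16 of them 2-fold or more higher and 1 lower, the median being 1.15. Under the 2 normexp settings, 10 (75th percentile) and 9 (quantile scaling) of these 25 were higher. Ackr1, the chemokine-binding receptor of venules, stood at 2.02, and the transcription factors Lmo2 and Ets1 at 1.84 each. The lower gene of the 29 was Arhgef15, at -1.89. Edn1, the vasoconstrictor endothelin, was detected in Nrdc-cKO only and was at least 2.98-fold higher.

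Values of the main tissue compartments stand beside these for scale. All 9 acinar genes examined were at least 2-fold lower, with a median of -1.88 that came to 0.01 with spike-in scaling and -0.14 with quantile scaling, and a summed signal of 2424960 in WT and 2010940 in Nrdc-cKO. Of 8 fat cell genes, 2 were measured, Plin4 (6.40) and Lep (-1.87), and the other 6 were detected in Nrdc-cKO only, with Cfd at least 1360-fold higher and a summed signal of 213.4 and 92903 for the 8. Fat tissue contains its own capillaries, and the part of the vessels of fat, islets or lymphoid tissue in the endothelial values was not tested.

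**Figure D3:**
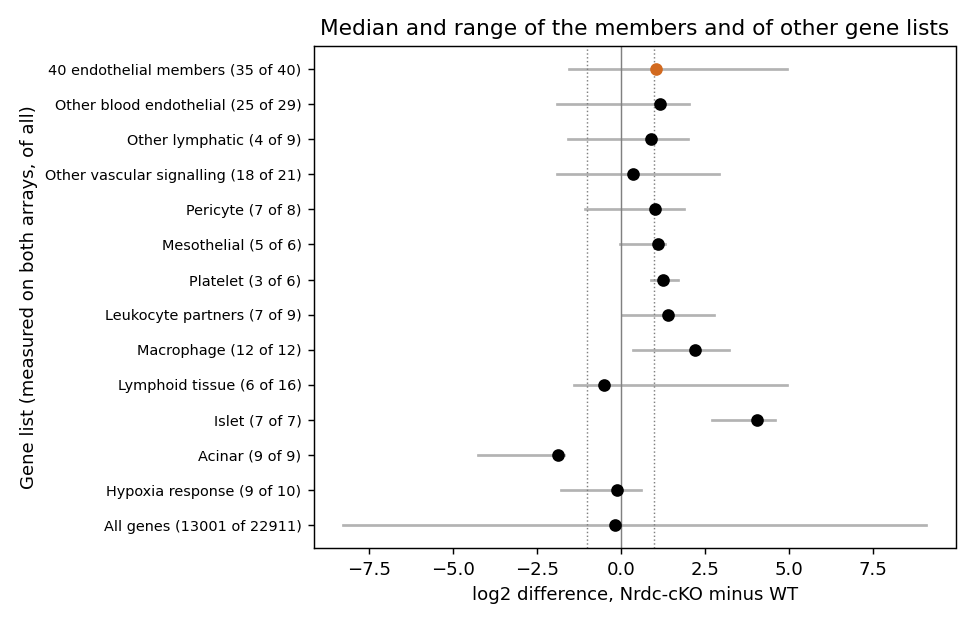
Median (point) and range (line) of the log2 difference, Nrdc-cKO minus WT (x axis), for the 40 endothelial members and for other gene lists (y axis), with the number measured on both arrays in brackets. The members' median of 1.04, taken over all roles, lies near the 1.15 of the other blood endothelial genes. It lies below the macrophage and islet medians of 2.21 and 4.04 and above the acinar median of -1.88. The fat cell list, with 2 genes measured, is not drawn.

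**Figure D4:**
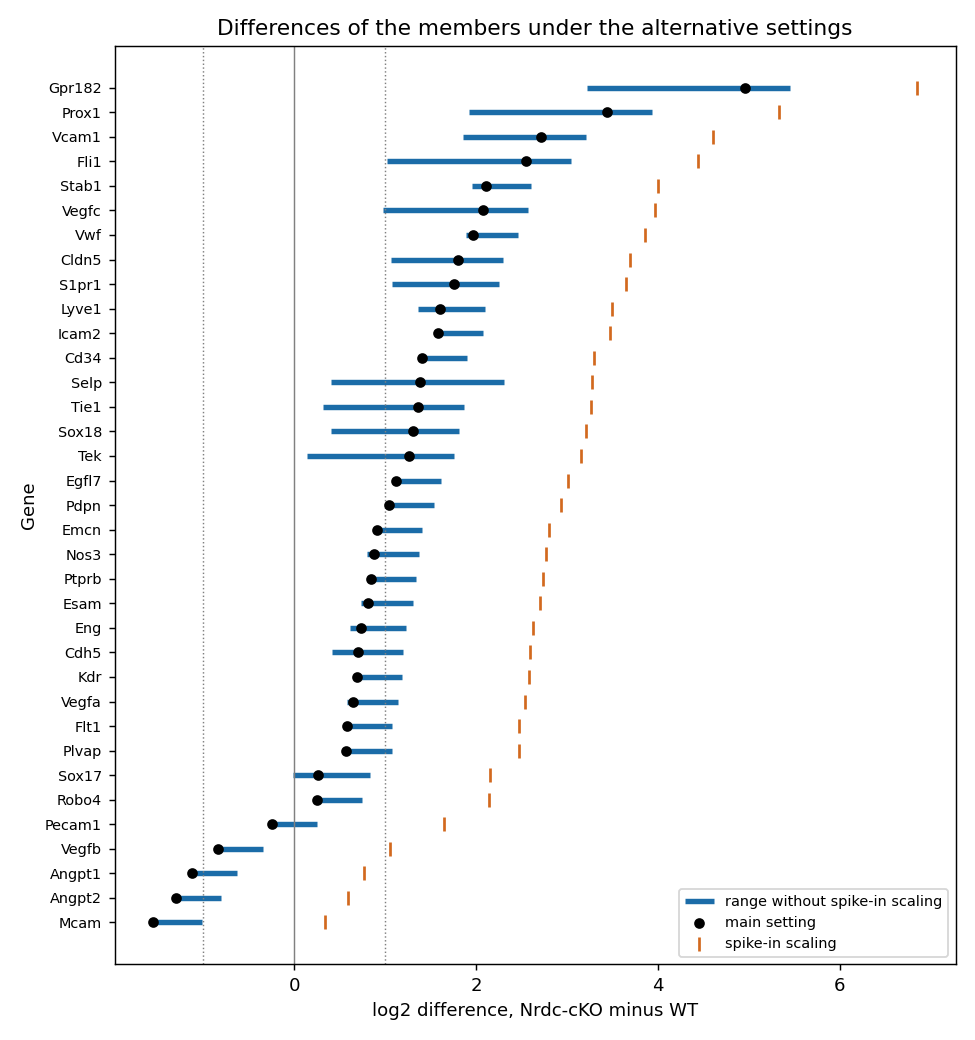
Log2 difference, Nrdc-cKO minus WT (x axis), of each measured member (y axis) in the main setting (black point), with its range over the main and alternative settings other than spike-in scaling (blue line) and its value with spike-in scaling (orange mark). Of the 18 members above 2-fold in the main setting, 13 stayed above 2-fold in every setting that measured them, and Mcam, Vegfb, Angpt1 and Angpt2 stayed below 0 except with spike-in scaling.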

How the data were processed

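Cy3-labelled cRNA from WT and Nrdc-cKO pancreas was hybridised to 1-colour Agilent mouse arrays, 1 per group, that shared 1 slide, per the file headers. The deposited scanner files hold a linear processed intensity per spot, corrected by the authors for background and spatial trend with Agilent Feature Extraction. The file headers give its version as 12.0.3.1, whereas the submitters' processing notes name 11.5.1.1. The authors' deposited value table holds the same intensity times 1 constant per array (4.37 for WT, 1.92 for Nrdc-cKO), with medians of 42.5 and 66.0; the choice of constants is not given.

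Of 59305 non-control spots per array, 80 (WT) and 74 (Nrdc-cKO) were flagged as outliers, and none was saturated. A spot flagged on either array was left out of both. Repeat spots were averaged on the log2 scale and each array's 75th percentile was then removed. Detection of a probe needed the flag for signal well above background on a share of 0.5 or more of its spots. A gene's difference is the mean over its probes detected on both arrays. A gene detected on 1 array only has a bound, taken against either the dim array's lowest detected signal or the probe's own signal there, whichever was higher, and written as at least N-fold. Of 35885 RefSeq probes, 91.9% matched a gene of a GRCm38.p6 table, used for names and promoters only, since the array design refers to another build. Calls need 2-fold, without a test. The code was tested on simulated arrays. Alternatives used limma 3.58.1 in R 4.3.3 (normexp with an offset of 50, quantile scaling, loess) and 8 detected spike-in probes. Members, lists, thresholds and the rule for named genes (all members, Nrdc, and from each other list at most 4 genes with the largest differences plus the highest bound) were chosen with earlier results of these data known.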

Additional observations from a re-analysis of the deposited data

Results flagged for a closer look

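Several members had further probes, each well above background on the Nrdc-cKO array but not on the WT array, which entered no difference. The second Cd34 probe had a signal of 83.1 on the Nrdc-cKO array and 8.90 on the WT array. The 2 further Selp probes had 59.7 and 78.6 against 2.39 and 4.08. The second probes of Vcam1 (54.0 against 5.25) and Sox17 (22.2 against 2.61) and a further Vegfa probe (24.97 against 5.96) were in the same position. The differences of these genes in the report rest on the other probes.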

How the results depend on the processing

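No paired analysis was possible because WT and Nrdc-cKO had only 1 array apiece, and no replicate could be left out. Of 18 members past 2-fold upward, 13 were so in every setting that measured them, and 29 members were positive throughout. Spike-in scaling gave 32 higher members, against 79.8% of all genes, and 0 lower members. Its member median was 2.93 against 1.04 as reported, with -1.32 for Nrdc. The value table gave 28 higher members, against 22.2% of all genes, and 1 lower, with a member median of 1.54 and -2.71 for Nrdc. Normexp gave 1 lower member with either scaling, a Nrdc value of -2.23 (75th percentile) and -2.20 (quantile), and with the latter a member median of 0.77. Loess moved the member median to 1.26 and Nrdc to -3.08, and taking the percentile over probes detected on both arrays moved them to 1.20 and -3.05. The member median was 1.17 after quantile scaling and 0.91 with bright probes only. Lower members numbered 5 of 40 with no filter on dim probes, which takes in probes near background. In that setting 8013 of 22911 genes were lower. A 4-fold threshold left 6 higher and 0 lower members. The median of all genes moved by 1.89 with spike-ins, 0.50 for the value table, -0.28 with no filter and at most 0.19 otherwise, and the member median lay 0.82 to 1.54 above it throughout. With spike-in scaling Mcam (0.34), Angpt1 (0.77), Angpt2 (0.59), Vegfb (1.06) and Pecam1 (1.65) turned positive, by the construction of that scaling. For the other changes the cause was not tested. Tek, Tie1, Sox18, Selp, Fli1, Prox1, Gpr182 and Vegfc had WT signals of at most 22.7, where the lowest detected WT signal was 11.4. Whether low signal bears on their changes was not tested.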
